A study of Mus musculus with 24 samples.

Results

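The 10 genes described here are the ligand genes *Wnt2*, *Wnt9b* and *Rspo3*, the R-spondin receptor gene *Lgr5*, and 6 genes induced by β-catenin, namely *Rnf43*, *Znrf3*, *Axin2*, *Nkd1*, *Sp5* and *Tbx3*. They were taken by symbol, with no threshold on measured values, from a list drawn up when earlier results of these data were known, and all 10 were found among the 24411 genes of the deposited read counts. The counts come from whole livers of male mice, 2.5 months old and fasted for about 16 h, in 24 libraries. In the LKO cohort, mice carried floxed *E2f7* and *E2f8* alleles and the R26R mTmG reporter on a mixed, mostly FVB background. LKO mice also carried Alb-Cre, which deletes *E2f7* and *E2f8* in the liver lineage from early life, and their control littermates lacked Cre (these carry the label WT). This cohort has 4 LKO and 4 control mice at 0 h, and 1 pool of 3 mice per genotype at each of 12, 24, 48, 72 and 96 h after 300 mg/kg acetaminophen (APAP), given intraperitoneally. In the HKO cohort, floxed mice received AAV8-TBG-Cre at 2 months, a virus that expresses Cre from a hepatocyte promoter, or AAV8-TBG-Null as control, and there are 3 HKO and 3 control mice at 0 h. Neither Cre is designed to act in endothelial cells, which express the ligand genes.

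Wnt proteins bind Frizzled and LRP receptors at the cell surface and prevent destruction of β-catenin, which then enters the nucleus and activates genes with TCF/LEF transcription factors. In the liver, endothelial cells around the central vein are a source of *Wnt2*, *Wnt9b* and *Rspo3*, and the hepatocytes next to them keep β-catenin active and express the pericentral program, including the enzymes that turn APAP into its toxic metabolite. R-spondins such as *Rspo3* bind LGR receptors and remove RNF43 and ZNRF3, which otherwise clear Frizzled from the membrane. *Axin2*, *Nkd1*, *Rnf43* and *Znrf3* are feedback inhibitors, so the same signal that induces them is damped by their products.

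On GRCm38 (GENCODE vM21), the ligand genes lie at chr6:17988940-18030585 (*Wnt2*, minus strand), chr11:103727364-103749821 (*Wnt9b*, minus strand) and chr10:29452416-29535867 (*Rspo3*, minus strand). *Lgr5* lies at chr10:115450311-115587780 on the minus strand, *Rnf43* at chr11:87662722-87735539 on the plus strand and *Znrf3* at chr11:5276324-5444847 on the minus strand. *Axin2* lies at chr11:108920349-108950783, *Nkd1* at chr8:88521354-88594884, *Sp5* at chr2:70474923-70477729 and *Tbx3* at chr5:119670669-119684724, all on the plus strand. All 10 are protein-coding, and a gene's count is the reads over its exons, UTRs included. Exons of *Rspo3*, *Axin2* and *Tbx3* overlap an annotated gene on the opposite strand (Gm48159, Gm11670 and Tbx3os1), and counting here disregarded strand, so reads of these pairs cannot be told apart.

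The promoters of *Sp5* and *Axin2* are shown because *Sp5* had 0 reads in 3 of the 10 pools after APAP and *Axin2* differed 3.55-fold between the pools of 12 h. Both are the 250 bases before the annotated start from RefSeq on GRCm38.p6, plus strand, chr2:70474673-70474922 for *Sp5* and chr11:108920099-108920348 for *Axin2*, with matches to a TCF/LEF-type motif in capitals.
Sp5: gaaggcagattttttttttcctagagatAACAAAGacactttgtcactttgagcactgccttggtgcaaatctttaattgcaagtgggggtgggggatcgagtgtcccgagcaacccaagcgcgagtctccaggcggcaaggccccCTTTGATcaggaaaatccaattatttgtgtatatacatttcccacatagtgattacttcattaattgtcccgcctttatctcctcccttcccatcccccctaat
Axin2: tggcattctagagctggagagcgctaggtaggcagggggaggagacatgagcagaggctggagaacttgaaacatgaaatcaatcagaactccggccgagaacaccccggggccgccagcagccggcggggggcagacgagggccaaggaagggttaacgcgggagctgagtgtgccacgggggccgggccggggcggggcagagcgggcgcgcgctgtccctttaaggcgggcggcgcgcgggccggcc
The motif was searched on either strand in 4 forms, which are CTTTGAA and CTTTGAT as well as CTTTGTA and CTTTGTT. Of the 7 promoters matched to 6 of the genes (*Sp5*, *Axin2*, *Wnt2*, *Wnt9b*, *Nkd1* and *Rnf43*, which has 2 starts), only that of *Sp5* held a match, with CTTTGAT 104 bases before the start and CTTTGTT, read as AACAAAG, 222 bases before it. Among 32851 promoters of this length, 14.8% held at least 1 match and 1.43% at least 2. A match is a run of letters, and the absence of one says only that these letters are not in this window.

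Reads on genes ranged from 12665686 to 19499897 per library, with a median of 16500385.5. Levels are given as CPM (read counts scaled to a common library total, with TMM factors over all 24 libraries), and 3 counts, the lowest level treated as detectable, correspond to 0.141 to 0.26 CPM, a limit of counting error only. Calls required edgeR's quasi-likelihood test to give an adjusted p below 0.05 together with a change of 1.5-fold or more. The libraries of 0 h are single mice, while a pool gives no spread within its genotype and time. The liver label held in each library, with *Alb* at 26425 CPM or more and all 14 endothelial markers detected. *E2f8* ranged from 11.6 to 18.7 CPM in control and 17.6 to 34.2 CPM in LKO mice at 0 h, and from 15.2 to 26.4 CPM in HKO-control and 30.7 to 83.9 CPM in HKO mice. *E2f7* had at most 22 counts in these mice. Both counts cover whole genes, exons outside the deletion included, so they do not check the genotypes, and LKO and HKO below mean libraries with those labels.

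Before APAP, none of the 10 genes differed between LKO and control mice, or between HKO and HKO-control mice, by a called change. In LKO mice 0 of 10 were called, where 0% of 12426 genes tested were called and 2.83% had an unadjusted p under 0.05. DESeq2 also called 0 of 10. Levels of LKO and control mice overlapped for all 10, while 1.85% of all genes did not overlap. In HKO mice 0 of 10 were called by either tool, where edgeR called 0.96% of 12397 genes and 12.9% had an unadjusted p under 0.05. A test of whether the effect differed between LKO and HKO mice called 0 of 10 genes, with 0% of 12945 genes called and 4.47% at an unadjusted p under 0.05. Among the 10 genes, the log2 fold change at 0 h lay between -0.36 (*Axin2*) and 0.30 (*Lgr5*) in LKO mice and between -1.30 (*Sp5*) and 0.71 (*Nkd1*) in HKO mice.

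**Figure D1:**
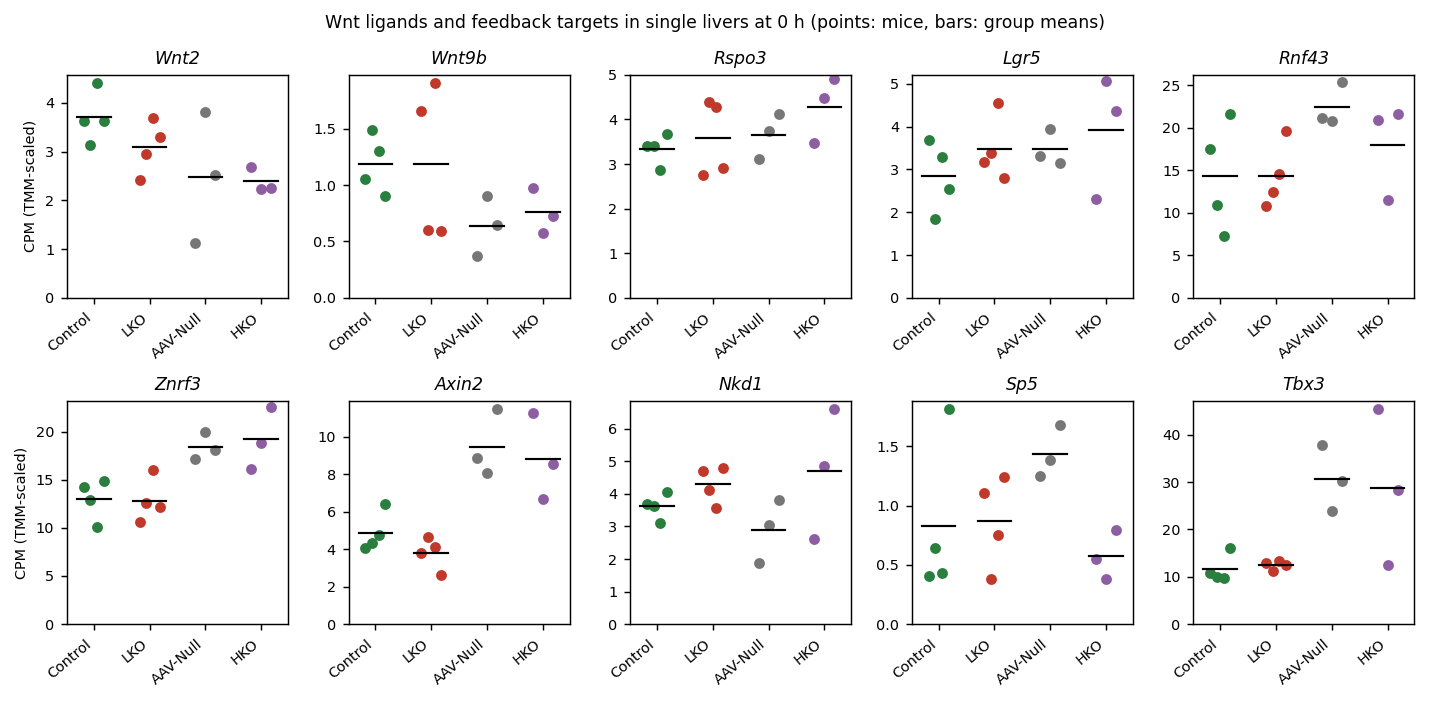
CPM of the 10 genes in the 14 single livers at 0 h, on linear axes that start at 0. Each point is a mouse and each bar a group mean, and AAV-Null marks the HKO-control mice. *Sp5* is the gene for which no HKO mouse reached the level of an HKO-control mouse, and *Axin2* and *Znrf3* are higher in all 6 mice of the HKO cohort than in all 8 of the LKO cohort.

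*Sp5* encodes a zinc-finger transcription factor that β-catenin induces and that represses other targets of the pathway. It had 1.25, 1.38 and 1.68 CPM in the HKO-control mice and 0.547, 0.384 and 0.795 CPM in the HKO mice. All 3 HKO mice lay below all 3 controls, from 6 to 12 counts against 20 to 26. The log2 fold change was -1.30 (SE 0.42), with an unadjusted p of 0.012 and an adjusted p of 0.22 from edgeR, so it was not called. Groups did not overlap for 18% of all genes tested in this comparison, and the adjusted p lay between 0.209 and 0.554 over 13 alternatives. In the LKO cohort the 4 control mice had 0.41, 0.64, 0.433 and 1.81 CPM of *Sp5* and the 4 LKO mice 1.1, 0.383, 0.751 and 1.24 CPM, and the groups overlapped. The *Sp5* effect differed between the cohorts by 1.34 on the log2 scale (SE 0.76, LKO minus HKO), with an unadjusted p of 0.0973 and an adjusted p of 1 from edgeR.

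The cohorts themselves stood at different levels for some of these genes. *Axin2*, which encodes a scaffold of the β-catenin destruction complex, had 6.66 to 11.5 CPM in the 6 mice of the HKO cohort and 2.65 to 6.4 CPM in the 8 mice of the LKO cohort. *Znrf3*, a transmembrane ubiquitin ligase gene, had 16.2 to 22.6 CPM against 10.1 to 16 CPM. These were the 2 of 10 genes in which all 6 mice lay above all 8, and 4.76% of 12945 genes did so. Mean *Tbx3*, which encodes a T-box repressor, was 29.7 CPM in the HKO cohort and 12 CPM in the LKO cohort, but the HKO mouse with 12.4 CPM lay within the range of the LKO cohort. No test was run on this contrast, since virus and cohort cannot be told apart in it. The libraries of the cohorts also differed in the share of reads that fell on no gene feature. It was 12.6% to 14.7% in the HKO cohort and 8.47% to 10.75% in the LKO cohort at 0 h, and its part in these levels was not tested.

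The other 7 genes overlapped between the cohorts and between HKO and HKO-control mice. *Wnt2* had 1.12, 3.81 and 2.51 CPM in the HKO-control mice and 2.68, 2.24 and 2.25 CPM in the HKO mice, so the control mice spread more widely. *Wnt9b* had 0.374, 0.899 and 0.645 CPM against 0.973, 0.576 and 0.729 CPM. *Rspo3* had 3.12 to 4.13 CPM against 3.47 to 4.9 CPM and *Lgr5* 3.16 to 3.94 CPM against 2.31 to 5.06 CPM. In 3 of the 6 mice *Wnt2* lay below the lowest mouse of the LKO cohort, which had 2.42 CPM. *Rnf43* had 20.8 to 25.3 CPM against 11.5 to 21.6 CPM, with log2 fold change -0.30 (SE 0.22). *Nkd1* had 1.87, 3.04 and 3.8 CPM against 2.62, 4.87 and 6.62 CPM, with log2 fold change 0.71 (SE 0.38, edgeR adjusted p = 0.508). The HKO mice with 4.87 and 6.62 CPM lay above all controls, and the remaining one did not. *Tbx3* had 37.9, 23.9 and 30.3 CPM against 45.4, 12.4 and 28.3 CPM, and the HKO mice included both the highest and the lowest level.

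Per kilobase of exon, the order of the mean levels in the 4 control mice of the LKO cohort was *Rnf43* (2.18 ± 0.983 CPM per kb, SD, n = 4), *Tbx3* (1.75 ± 0.449), *Znrf3* (1.65 ± 0.268), *Wnt2* (1.64 ± 0.236), *Rspo3* (1.08 ± 0.112), *Axin2* (0.887 ± 0.191), *Nkd1* (0.794 ± 0.084), *Sp5* (0.392 ± 0.318), *Lgr5* (0.277 ± 0.0796) and *Wnt9b* (0.263 ± 0.0576). The ranges of neighbors in this order overlapped, except those of *Wnt2* and *Rspo3*. Of the ligand genes *Wnt2* and *Rspo3* had more reads per length than *Wnt9b*. Parts of the order rest on single mice. Without the control mouse with 1.81 CPM of *Sp5*, the *Sp5* mean was 0.235 CPM per kb, below *Lgr5* (0.287) and *Wnt9b* (0.284), and *Wnt2* (1.65) stood above *Znrf3* (1.57) and *Tbx3* (1.53). Without the control mouse with 3.69 CPM of *Lgr5*, *Lgr5* (0.249) stood below *Wnt9b* (0.273), and *Wnt2* (1.651) above *Znrf3* (1.601). Without the control mouse with 1.85 CPM of *Lgr5*, *Wnt2* (1.725) also stood above *Znrf3* (1.659), so the order of *Wnt2* and *Znrf3* is not settled.

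At 12 h after APAP *Lgr5* had fallen and *Rnf43*, *Axin2*, *Nkd1* and *Tbx3* had risen. *Wnt2*, *Wnt9b*, *Lgr5* and *Sp5* were lower at 24 h, and *Wnt2*, *Lgr5*, *Sp5* and *Tbx3* at 48 h. *Rspo3* was higher at 72 h, and no gene of the 10 passed the test at 96 h. These calls come from 2 pools, 1 per genotype, against 8 mice at 0 h in an additive fit of genotype and time over the 18 libraries of the LKO cohort. At 12 h, 4 of 10 were called higher, where 16.7% of 13855 genes were, and 1 of 10 lower, where 14.3% were. At 24 h, 4 of 10 were called lower (11.7% of all genes), and at 48 h again 4 of 10 (6.52%). At 72 h, 1 of 10 was called higher (11%). At 96 h, 0 of 10 were called by edgeR or DESeq2, 0.462% of all genes were called and 15.4% had an unadjusted p under 0.05 by edgeR, and *Tbx3*, *Rnf43* and *Rspo3* had unadjusted p-values under 0.05. From 12 to 96 h, the medians of the 10 log2 changes were 0.13, -0.59, -1.09, 0.28 and 0.04 in turn, while medians of all genes lay between -0.03 and 0. The fit averages over the pools of both genotypes, so a call need not hold in each. Where a pool is left out below, its time is a single pool that is assumed to vary like the other groups of the fit, so a p-value there has no spread of its own time behind it and rests on fewer libraries. At 12 h *Axin2* and *Tbx3* were called although their control pools lay within the 0 h range and the LKO pools alone above it. Positions against the 0 h range, here and below, compare 1 pool with 4 mice. How many of all genes lay outside that range was not counted, so such positions are descriptions and not tests. Over all genes, 16.7%, 13.9%, 9.89%, 11% and 0.332% were called higher at the 5 times in turn and 14.3%, 11.7%, 6.52%, 5.77% and 0.13% lower, and the counts over gene lists given below stand beside these shares.

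**Figure D2:**
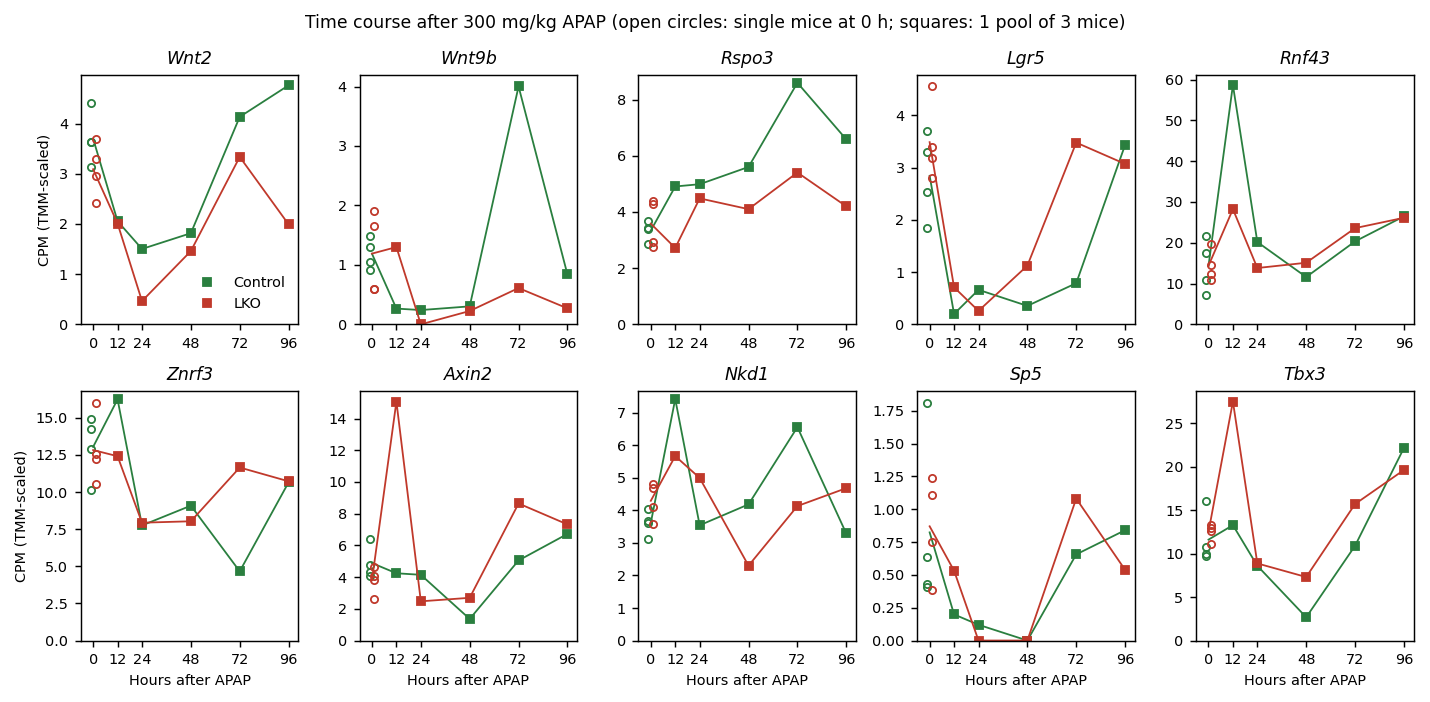
CPM of the 10 genes over the time course, on linear axes that start at 0. Open circles are the single control (green) and LKO (red) mice at 0 h, squares are single pools of 3 mice, and lines join the 0 h mean to the pools. *Lgr5* is below 1.2 CPM in both pools at 12, 24 and 48 h, and the highest *Axin2* and *Tbx3* levels of the LKO pools are at 12 h.

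*Wnt2*, a ligand of sinusoidal and central vein endothelium, was lower at 24 and 48 h. At 0 h the 4 control mice had 3.63, 3.13, 4.42 and 3.62 CPM, and the 4 LKO mice had 2.42, 2.96, 3.7 and 3.29 CPM. From 12 to 96 h the control pools had 2.06, 1.5, 1.82, 4.13 and 4.76 CPM, and the LKO pools had 2.01, 0.464, 1.46, 3.34 and 1.99 CPM. All 6 pools of 12, 24 and 48 h lay below every mouse of their genotype at 0 h, and both pools of 72 h lay within the range. At 96 h the control pool lay above and the LKO pool below it. The log2 change from 0 h was -0.71 (SE 0.33) at 12 h, with an edgeR adjusted p of 0.103, and -1.87 (SE 0.37) at 24 h, with an adjusted p of 0.00159. At 48 h it was -1.05 (SE 0.34), adjusted p = 0.0401. The 24 h call was lost without the LKO pool (-1.34, edgeR adjusted p = 0.0715), and the 48 h call without either pool (-0.96, adjusted p = 0.288 without the control pool, and -1.15, adjusted p = 0.125 without the LKO pool). The change at 48 h was thus of like size with 1 pool as with both. The LKO pool of 24 h held 9 reads of the gene against 25 in the control pool, a ratio of 0.309 with a 95% counting interval of 0.127 to 0.684, and that of 96 h held 37 against 68, a ratio of 0.418 (0.273 to 0.633).

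*Wnt9b*, expressed by central vein endothelium, had few reads, and its pools of 24 and 48 h held 0 to 6 reads each. At 0 h the control mice had 1.05, 1.49, 1.3 and 0.906 CPM and the LKO mice 1.66, 0.603, 1.91 and 0.594 CPM. The control pools then had 0.265, 0.24, 0.303, 4 and 0.84 CPM, and the LKO pools 1.3, 0, 0.225, 0.611 and 0.269 CPM. The control pool of 72 h stood above every other library of the series, and its LKO counterpart held 13 reads against 61, a ratio of 0.153 (0.0769 to 0.281). At 12 h the order was the opposite, with 22 reads in the LKO pool and 4 in the control pool, a ratio of 4.9 (1.67 to 19.6). Over both genotypes *Wnt9b* was lower than at 0 h at 24 h, with 4 reads in the 2 pools against 148 in the 8 mice, a ratio of 0.0958 (0.0258 to 0.251, counting error only). Its edgeR adjusted p there was 0.0215, and 0.218 (log2 change -2.43) without the LKO pool, which held 0 reads and so allows up to 0.155 CPM. The log2 change at 48 h was -2.16 (SE 0.88), adjusted p = 0.0979 from edgeR.

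*Rspo3*, the R-spondin gene of central vein endothelium and of stellate cells, was highest at 72 h in both genotypes. The control mice had 3.4, 3.41, 2.86 and 3.68 CPM at 0 h, and the LKO mice 2.76, 4.38, 4.27 and 2.92 CPM. The control pools had 4.91, 4.99, 5.6, 8.6 and 6.58 CPM from 12 to 96 h, and the LKO pools 2.72, 4.48, 4.1, 5.4 and 4.2 CPM. Each control pool lay above all control mice at 0 h, and 2 of 5 LKO pools, those of 24 and 72 h, above all LKO mice, while that of 12 h lay below them. The log2 change at 72 h was 0.98 (SE 0.25), with an edgeR adjusted p of 0.0131, and 0.74 with an adjusted p of 0.341 without the control pool. At 24 and 48 h the log2 change was 0.44 and 0.46, with edgeR adjusted p-values of 0.232 and 0.238.

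The ligand genes were set beside the endothelial markers, because fewer cells of a type and less RNA per cell cannot be told apart in whole-liver RNA. The summed level of the 14 markers was 373 to 475 CPM in control and 419 to 482 CPM in LKO mice at 0 h, and 296 to 469 CPM in the 10 pools, lowest in the LKO pool of 24 h. Their median change from 0 h per pool lay between -0.47 and 0.04 on the log2 scale. At 24 h, where *Wnt2* changed by -1.22 in the control and -2.44 in the LKO pool, the median of the markers changed by -0.29 and -0.47. At that time 6 of 14 markers were called lower (*Stab2* by the most, -1.51, adjusted p = 2e-04 from edgeR) and *Lyve1* higher. Across the other times the counts called higher and lower were 3 and 2 at 12 h, 1 and 3 at 48 h, 0 and 2 at 72 h, and 0 and 0 at 96 h. Of 4 markers of central vein endothelium, *Thbd* was higher at 12 h (2.50, adjusted p = 5.72e-05 from edgeR), *Kit* lower at 24 h (-1.30, adjusted p = 0.0121), and *Vwf* lower at 48 h and 96 h (-1.03 and -1.57). The median change of these 4 markers was -0.07 in the control pool and -1.05 in the LKO pool of 24 h. At 48 h it was 0.07 in the control pool and -0.90 in the LKO pool. Stellate markers, whose cells also express *Rspo3*, had 2 of 8 higher and 1 lower at 12 h, and from 24 to 96 h they had 2, 1, 5 and 0 higher. The part of these cells in the ligand changes was not tested.

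**Figure D3:**
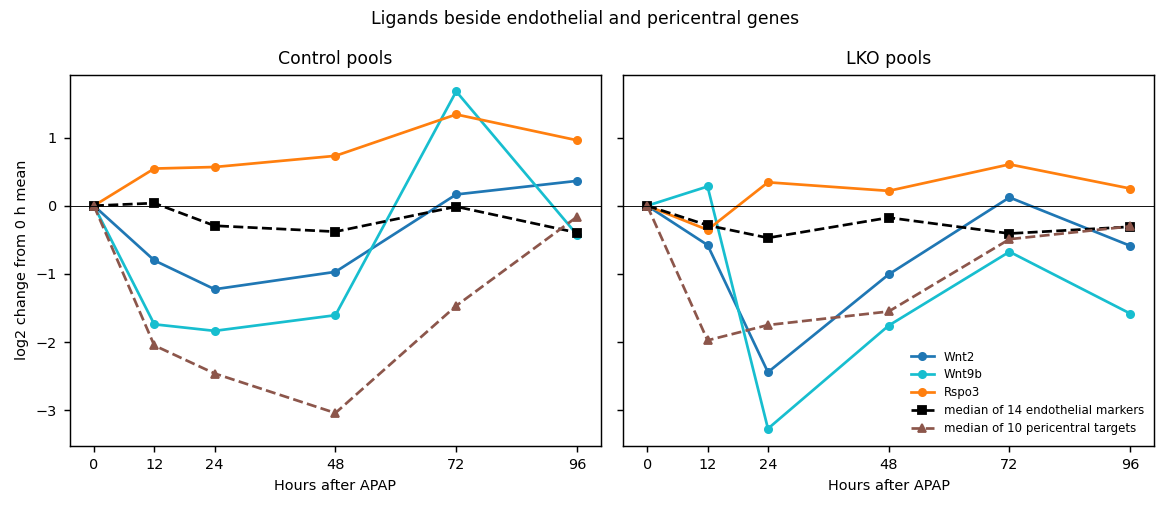
Change from the 0 h mean of the genotype, in log2 CPM with a prior count of 2, for *Wnt2*, *Wnt9b* and *Rspo3* in control (left) and LKO (right) pools, beside the median of 14 endothelial markers (black squares) and of 10 pericentral genes (brown triangles). Each point is a single pool. The median of the 14 endothelial markers stays between -0.47 and 0.04, while the pericentral median reaches -3.04 in control pools. The markers of central vein endothelium are not drawn.

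*Lgr5*, which encodes an R-spondin receptor and marks hepatocytes beside the central vein, was the one gene of the 10 called at each of 12, 24 and 48 h. The 4 control mice had 3.69, 1.85, 3.29 and 2.54 CPM at 0 h and the 4 LKO mice 3.18, 3.4, 4.56 and 2.81 CPM. The control pools had 0.199, 0.661, 0.353, 0.787 and 3.43 CPM from 12 to 96 h, and the LKO pools 0.709, 0.258, 1.12, 3.48 and 3.07 CPM. At 12 h the control pool held 3 reads, the lowest level treated as detectable, and the LKO pool 12. All pools of 12 to 48 h lay below every 0 h mouse of their genotype, and at 96 h both were back within the range. By edgeR, *Lgr5* changed by -2.82 on the log2 scale at 12 h (SE 0.60, adjusted p = 0.00201), by -2.73 at 24 h (SE 0.59, adjusted p = 0.00298) and by -2.17 at 48 h (SE 0.55, adjusted p = 0.0123). The 12 h call held under all 17 alternatives run, with adjusted p-values from 2e-05 to 0.0481. The 24 h call was lost without the LKO pool (-1.89, adjusted p = 0.109 from edgeR) and the 48 h call without the control pool (-1.69, adjusted p = 0.204), although the pools that remained lay below every 0 h mouse of their genotype. At 72 h the genotypes stood apart, with 74 reads in the LKO and 12 in the control pool, a ratio of 4.42 (2.38 to 8.93), and at 48 h with 20 against 7, a ratio of 3.18 (1.29 to 8.9).

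*Rnf43*, a transmembrane ubiquitin ligase gene that removes Frizzled receptors, was higher at 12 h. The control mice had 17.4, 10.9, 7.27 and 21.6 CPM at 0 h and the LKO mice 10.8, 12.4, 14.6 and 19.6 CPM. The control pools had 58.7, 20.2, 11.6, 20.3 and 26.5 CPM and the LKO pools 28.2, 13.8, 15.1, 23.6 and 26.1 CPM. Both 12 h pools lay above all mice at 0 h, and the control pool held 885 reads against 478 in the LKO pool, a ratio of 0.481 (0.43 to 0.539). The log2 change at 12 h was 1.58 (SE 0.30), with an edgeR adjusted p of 0.000843, and 0.97 with an adjusted p of 0.102 without the control pool. Its partner *Znrf3* had 14.2, 12.9, 10.1 and 14.9 CPM in control and 10.6, 12.5, 16 and 12.2 CPM in LKO mice at 0 h. The control pools then had 16.2, 7.75, 9.08, 4.66 and 10.7 CPM of *Znrf3* and the LKO pools 12.4, 7.93, 8.03, 11.7 and 10.7 CPM. *Znrf3* was below the 0 h range of its genotype in both pools at 24 and 48 h (log2 changes -0.72 and -0.59, edgeR adjusted p = 0.0531 and 0.13), and at 72 h in the control pool alone. That pool held 71 reads of *Znrf3* against 248 in the LKO pool, a ratio of 2.5 (1.91 to 3.3). By edgeR, the 72 h change was -0.67 over both pools (adjusted p = 0.0953), -1.51 without the LKO pool (adjusted p = 0.00393) and -0.11 without the control pool (adjusted p = 0.904). The p-values with 1 pool take their spread from the other groups alone.

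*Axin2* lay above the 0 h range in the LKO pool of 12 h and within it in the control pool. The control mice had 4.04, 4.34, 4.76 and 6.4 CPM at 0 h, and the LKO mice 3.8, 4.66, 4.1 and 2.65 CPM. The control pools had 4.24, 4.14, 1.36, 5.05 and 6.72 CPM, and the LKO pools 15.1, 2.47, 2.69, 8.64 and 7.32 CPM. The LKO pool of 12 h was the highest of the 24 libraries, with 255 reads against 64 in the control pool, a ratio of 3.55 (2.69 to 4.75). The log2 change at 12 h over both genotypes was 1.12 (SE 0.37, edgeR adjusted p = 0.029), and it was -0.05 (adjusted p = 0.947) without the LKO pool. Leaving out the LKO mouse with 4.1 CPM moved the adjusted p to 0.0513. At 48 h the control pool was below all control mice and the change over both genotypes was -1.13 (SE 0.44), with an adjusted p of 0.0858 from edgeR and 0.0477 from DESeq2. The LKO pool exceeded the control pool in 4 of 5 pairs, all but that of 24 h.

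*Nkd1*, whose product binds Dishevelled and limits Wnt signaling, rose at 12 h. The control mice had 3.69, 3.62, 3.12 and 4.05 CPM at 0 h and the LKO mice 4.7, 4.11, 3.58 and 4.8 CPM. The control pools had 7.42, 3.54, 4.19, 6.56 and 3.29 CPM and the LKO pools 5.67, 5, 2.3, 4.13 and 4.68 CPM. Both 12 h pools lay above the 0 h range, by a log2 change of 0.73 (SE 0.27, edgeR adjusted p = 0.0436). The call was lost without either pool (0.49, adjusted p = 0.38 without the control pool, and 0.94, adjusted p = 0.0649 without the LKO pool). At 48 h the pools parted, with 83 reads in the control and 41 in the LKO pool, a ratio of 0.55 (0.369 to 0.809).

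*Sp5* was at 0 reads in both pools of 48 h. From 12 to 96 h the control pools had 0.199, 0.12, 0, 0.656 and 0.84 CPM of *Sp5*, and the LKO pools 0.532, 0, 0, 1.08 and 0.538 CPM. The 8 mice at 0 h held 110 reads in all and the 2 pools of 48 h none, so the level was at least 10.8-fold lower when a floor of 3 reads over both pools (0.0797 CPM) stands for the 0. The two-sided 95% counting interval is wider and reaches a ratio of 0.116. At 24 h the pools held 2 reads, a ratio to 0 h of 0.0645 (0.00771 to 0.238). The edgeR adjusted p was 0.0129 at 24 h and 0.00508 at 48 h, and the fitted log2 changes are not given because they depend on the prior count. Without the LKO pool the 24 h adjusted p was 0.187, and without the control pool that of 48 h was 0.0804, with 2 and 0 reads in the pools that remained. At 72 and 96 h all 4 pools were within the 0 h range of their genotype.

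*Tbx3* was higher at 12 h and lower at 48 h. The control mice had 10.7, 9.95, 9.7 and 16 CPM at 0 h and the LKO mice 12.9, 11.1, 13.3 and 12.6 CPM. The control pools had 13.3, 8.59, 2.67, 10.9 and 22.1 CPM, and the LKO pools 27.5, 8.86, 7.3, 15.7 and 19.6 CPM. The LKO pools of 12 and 72 h and both pools of 96 h lay above all 0 h mice of their genotype, and both pools of 24 and 48 h lay below them. The log2 change was 0.72 (SE 0.26, edgeR adjusted p = 0.0402) at 12 h and 0.27 (adjusted p = 0.598) there without the LKO pool. Leaving out any of 7 of the 8 mice at 0 h also ended that call, and the exception was the control mouse with 16 CPM. At 48 h the change was -1.34 (SE 0.30, edgeR adjusted p = 0.00651), and -0.84 (adjusted p = 0.203) without the control pool. The LKO pool held more *Tbx3* than the control pool at 12 h (465 against 200 reads, ratio 2.07, 1.75 to 2.46) and at 48 h (130 against 53, ratio 2.73, 1.97 to 3.83), while at 24 h the ratio was 1.03 (0.822 to 1.3).

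The calls over time rest on few libraries, so their edgeR or DESeq2 adjusted p-values are given as the range over the 17 alternatives run. At 12 h the range was 3.75e-05 to 0.102 for *Rnf43*, 0.00679 to 0.947 for *Axin2*, 0.0397 to 0.468 for *Nkd1* and 0.0142 to 0.714 for *Tbx3*. At 24 h it was 2.47e-05 to 0.0877 for *Wnt2*, 0.00374 to 0.218 for *Wnt9b*, 2.21e-05 to 0.109 for *Lgr5* and 0.00741 to 0.226 for *Sp5*. At 48 h it was 0.0182 to 0.294 for *Wnt2*, 0.000565 to 0.204 for *Lgr5*, 0.000869 to 0.109 for *Sp5*, 0.000221 to 0.203 for *Tbx3* and 0.0351 to 0.569 for *Axin2*. At 72 h it was 0.00405 to 0.518 for *Rspo3* and 0.00393 to 0.904 for *Znrf3*. *Lgr5* at 12 h was the one call that held in all 17.

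**Figure D4:**
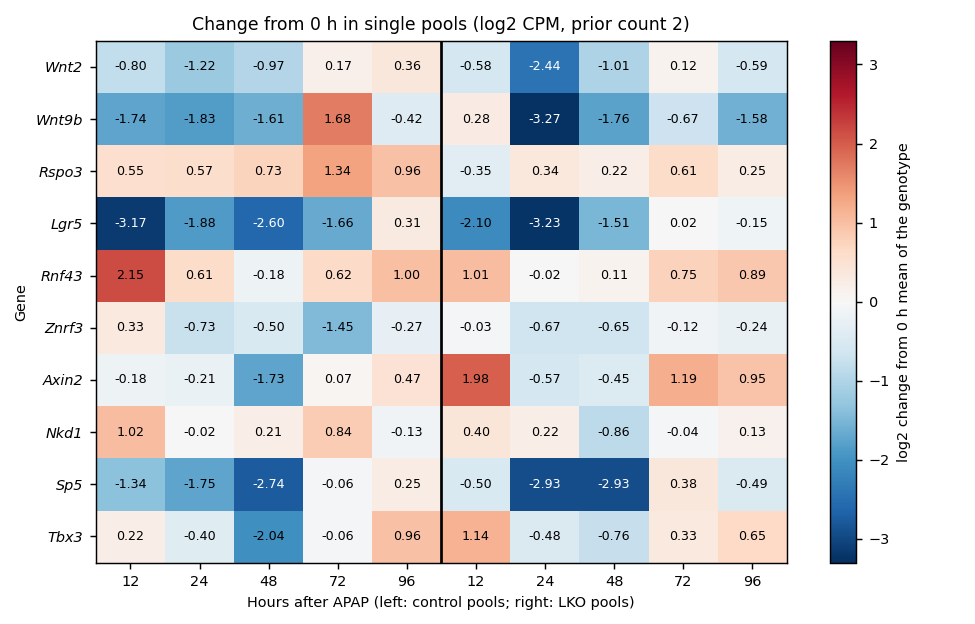
Change from the 0 h mean of the same genotype in each pool, in log2 CPM with a prior count of 2, for the 10 genes (rows) and the 5 times of the control (left) and LKO (right) pools. Red is higher and blue lower than at 0 h, and each cell prints its value. Where a pool held 0 reads, the value depends on the prior count. These cells are *Sp5* at 48 h in both pools, and *Sp5* and *Wnt9b* at 24 h in the LKO pool. *Lgr5* is lower in 7 of 10 pools by at least 1.51, and the *Axin2* value of 12 h is -0.18 in the control pool and 1.98 in the LKO pool.

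Of the genes with profiles most like these over the 18 libraries of the LKO cohort, by the root-mean-square difference of centered log2 CPM, the nearest to *Axin2* was *Tbx3* (0.363) and the nearest to *Tbx3* was *Axin2*. *Axin2* was followed by *Avpr1a* (0.5) and *Ankrd13d* (0.531), and *Tbx3* by *Gnmt* (0.383) and *H2-Aa* (0.396). The nearest to *Lgr5* were *Fn3k* (0.507), *Prss53* (0.588) and *D630003M21Rik* (0.592). For *Wnt2* they were *Neurl3* (0.402), *Nr1d2* (0.447) and *Wdr62* (0.454), and for *Rspo3* they were *Clic1* (0.235), *Ednrb* (0.242) and *Rpl23a* (0.259). *Rnf43* lay nearest to *Eepd1* (0.357), *Iffo2* (0.375) and *Limch1* (0.377), *Znrf3* to *Pcnx* (0.184), *Vps13d* (0.200) and *Ptprb* (0.208), and *Nkd1* to *Arhgap1* (0.222), *Sh2d3c* (0.230) and *Grb2* (0.260). Distances are smaller for genes that vary less, so they compare neighbors of a gene and not genes with each other. *Wnt9b* and *Sp5*, with means under 1 CPM, were left out.

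Whether the genotypes differed after APAP was asked with the time point as a block, over 5 pairs of pools. None of the 10 genes was called, by edgeR or by DESeq2, where edgeR called 0.512% of 13659 genes and 17.4% had an unadjusted p under 0.05. The pools labelled LKO held less *Rspo3* than the control pools at all 5 times, with or without TMM factors, and 8.32% of the genes tested were lower at all 5. *Wnt2* was lower in the LKO pool at 24, 48, 72 and 96 h, with counting intervals that included 1 at 48 and 72 h. At 12 h its ratio was 0.978 (0.583 to 1.65), and without TMM factors the LKO pool was the higher one. The log2 difference was -0.56 (SE 0.21, unadjusted p = 0.0244, edgeR adjusted p = 0.221) for *Rspo3* and -0.69 (SE 0.33, edgeR adjusted p = 0.318) for *Wnt2*. *Tbx3* (0.55, SE 0.24, unadjusted p = 0.0461, edgeR adjusted p = 0.277), *Axin2* (0.59, SE 0.34, adjusted p = 0.388) and *Lgr5* (0.80, SE 0.55, adjusted p = 0.481) had positive differences, with the LKO pool higher in 4, 4 and 3 of 5 pairs, and in 5, 4 and 4 without TMM factors. *Wnt9b* had the largest difference (-1.06, SE 0.81, edgeR adjusted p = 0.535), lower in the LKO pool in 4 of 5 pairs. Of the genes tested, 8.42% were higher in the LKO pool at all 5 times, and shares for fewer pairs were not counted. The remaining 4 genes had log2 differences between -0.22 and 0.13. A shift of the difference between 12–48 h and 72–96 h was called for 0 of 10 genes, by edgeR or DESeq2, where edgeR called 0.154% of all genes and 10% had an unadjusted p under 0.05. The *Znrf3* (-0.83, SE 0.45) and *Wnt9b* (2.45, SE 1.47) shifts had edgeR adjusted p-values of 0.575 and 0.624.

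At single times the pools can be set side by side, without replicates. At 12 h, *Axin2*, *Tbx3*, *Wnt9b*, *Lgr5* and *Sp5* were at least 2-fold higher in the LKO pool (log2 CPM with a prior count of 2), where 8.79% of genes were, and *Rnf43* was at least 2-fold lower, where 12.2% were. At 24 h *Wnt2*, *Wnt9b* and *Lgr5* were at least 2-fold lower (4.72%), the last from 5 against 11 reads and *Wnt9b* from 0 against 4. At 48 h *Lgr5* and *Tbx3* were at least 2-fold higher (6.92%). At 72 h *Lgr5* and *Znrf3* were at least 2-fold higher (6.29%) and *Wnt9b* lower (6.91%), and at 96 h *Wnt2* and *Wnt9b* were lower (4.5%). The counting intervals of *Lgr5* and *Sp5* at 12 h and of *Wnt9b* and *Lgr5* at 24 h included 1.

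**Figure D5:**
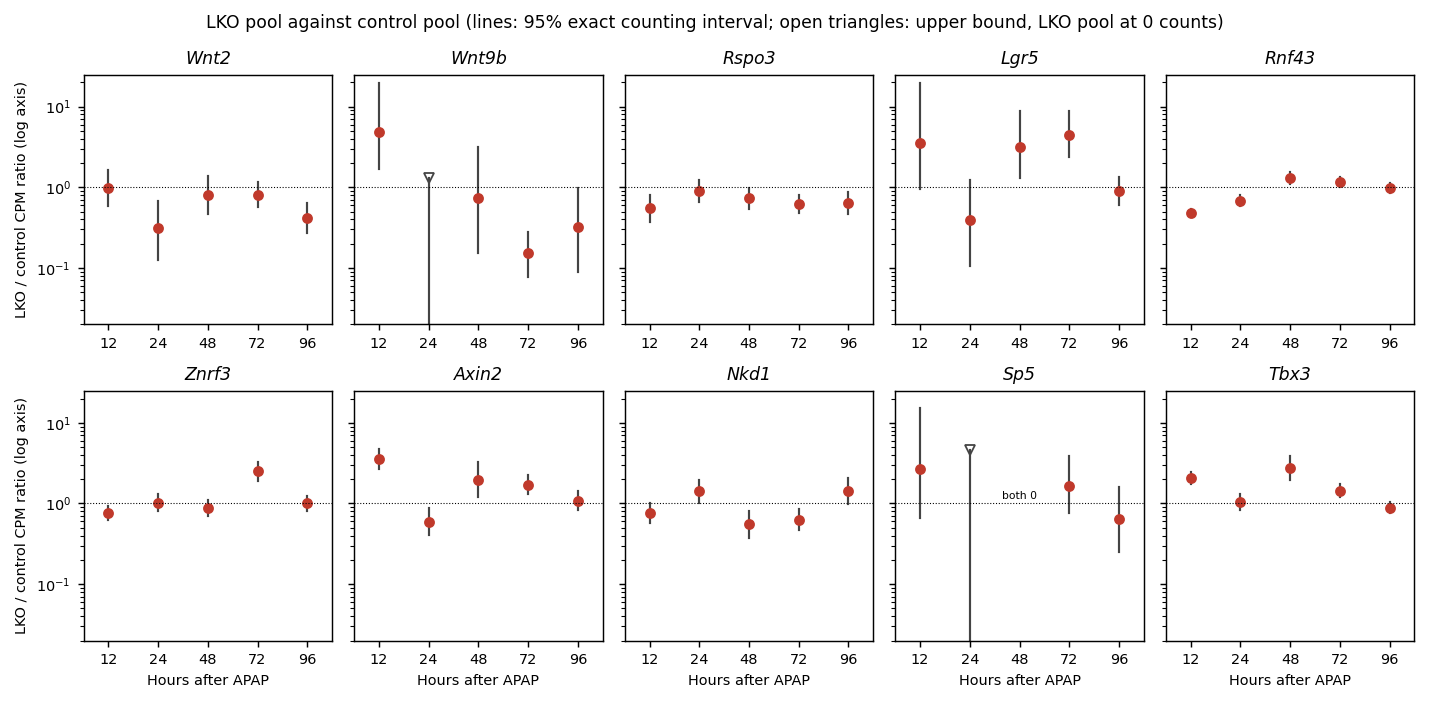
Ratio of the LKO to the control pool in CPM on a log axis for the 10 genes at each time, with 95% exact counting intervals that leave out the spread between mice. Open triangles mark the upper bound where the LKO pool held 0 reads. Intervals of *Rspo3* lie below 1 at 12, 48, 72 and 96 h, and the *Axin2* interval lies above 1 at 12, 48 and 72 h and below 1 at 24 h.

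The rest of the pathway was described from lists of genes by role. Of 20 other Wnt and R-spondin genes, 7 had enough reads to be tested over time. *Wnt11* was higher at 12 h, with 8 reads in the control and 48 in the LKO pool against at most 4 in a mouse at 0 h (edgeR adjusted p = 0.00203), and *Wnt2b* was lower at 12 and 24 h (-1.89 and -1.54). At 48 h *Wnt5b* was higher (0.86) and *Rspo1* lower (-2.14), and none was called at 72 or 96 h. Of the 2 ligand secretion genes, *Porcn*, the Wnt acyltransferase gene, was higher at 12 h (0.79) and *Wls*, the Wnt carrier gene, at 72 h (1.31, edgeR adjusted p = 0.000435). Receptor genes had 5 of 12 tested higher at 12 h, namely *Fzd5* (1.28), *Fzd8* (0.94), *Fzd7* (0.94), *Fzd6* (0.90) and *Lrp5* (0.77), and *Lgr4* lower (-0.61). *Fzd6* stayed called higher at 24 and 48 h (0.91 and 1.34), *Fzd8* and *Lgr4* were lower at 24 h (-1.07 and -0.72), and no receptor gene was called at 72 or 96 h.

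The secreted inhibitor *Notum*, a lipase that removes the lipid of Wnt proteins and is itself a pericentral β-catenin target, was lower at 12, 24 and 48 h (-1.95, -1.48 and -2.50, edgeR adjusted p = 0.000321, 0.00258 and 0.000114). Its control pools had 10.2, 13.7 and 3.83 CPM and its LKO pools 13.1, 19.1 and 12.69 CPM, against 34.4 to 62.9 CPM in the 8 mice at 0 h. Of the other secreted inhibitors, 5 of 14 being tested with *Notum*, *Kremen1* was higher at 12 h (0.72), *Frzb* at 48 and 72 h (1.59 and 2.36) and *Dkk3* at 72 h (1.02). Cytoplasmic transducers had 3 of 12 higher at 12 h (*Dvl3*, *Axin1* and *Gsk3b*) and *Btrc* lower, *Gsk3a* lower at 48 h, *Dvl3*, *Gsk3a* and *Axin1* lower at 72 h, and *Dvl3* lower at 96 h. Of all genes 16.7% were called higher at 12 h and 5.77% lower at 72 h, so the 12 h count of this list stands near the share of all genes. Nuclear effectors had 2 of 6 higher at 12 h, *Tcf7* (1.05) and *Bcl9* (1.00), and none at other times. Of 4 other targets tested, *Myc* was higher at 12 h (3.10, edgeR adjusted p = 4.26e-05), *Cd44* at 24, 48 and 72 h (1.06, 2.25 and 2.18) and *Ccnd1*, the cyclin D1 gene, at 24 and 72 h (1.11 and 1.80), and *Tnfrsf19* was lower at 48 h (-2.14).

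Pericentral β-catenin targets of hepatocytes were mostly lower at 12 to 48 h. Of 10 tested, 7, 8, 9, 3 and 1 were called lower from 12 to 96 h in turn, with *Slc1a2*, a glutamate transporter gene, lower at each time (-4.84, -7.17, -8.50, -6.91 and -3.79). The shares of all genes called lower at these times were 14.3%, 11.7%, 6.52%, 5.77% and 0.13%. *Glul*, the glutamine synthetase gene, had 174, 169, 156, 116 and 372 CPM in the control pools and 204, 114, 66.8, 214 and 228 CPM in the LKO pools, against 415 to 573 CPM in the 8 mice at 0 h. *Lect2* was the exception, lower at 12 h (-2.41) and higher at 24, 72 and 96 h (0.67, 1.04 and 0.99). *Avpr1a*, called lower at 48 h alone (-1.03), had 5.75 CPM in the control pool and 19.2 CPM in the LKO pool there. At 24 and 48 h the median change of the 10 genes in control pools was -2.46 and -3.04, and in LKO pools -1.75 and -1.55. Of the periportal genes, 1 of 7 was higher and 2 lower at 12 h, 4 lower at 24 h, and 2 lower at 48 h and at 72 h, with *Cyp2f2* (-0.80, -2.03, -1.85 and -0.94) and *Pck1* (-1.18, -1.83, -1.2 and -1.29) lower at each of the 4 times, and none was called at 96 h.

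At 0 h no gene of these pathway and zonation lists was called in LKO mice. In HKO mice *Lrp5*, a Wnt co-receptor gene (0.83, SE 0.11, edgeR adjusted p = 0.00967), and *Avpr1a*, the vasopressin receptor gene (1.83, SE 0.16, adjusted p = 0.00107), were higher, as were 0.419% of all genes. *Avpr1a* had 9.09 to 12.3 CPM in the 3 HKO-control and 31.2 to 41 CPM in the 3 HKO mice, with 17.2 to 34.3 CPM over the 8 mice of the LKO cohort, and the 3 HKO-control mice lay below the other 11 mice. Over 12–96 h, between genotypes, no gene of the lists was called.

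Cell type markers moved beside the time changes of the 10 genes. Hepatocyte markers had 1 of 6 higher and 1 lower at 12 h, 2 higher and 1 lower at 24 h, and *Hnf4a* lower at 48 and 72 h (-0.88 and -0.83). Kupffer cell markers had 1 of 6 lower at 12 h, 1 higher and 2 lower at 24 h, 1 higher at 48 h and 2 higher at 72 h, with *Marco* higher by the most (4.12 at 72 h). Markers of recruited macrophages were called higher in 2, 5, 7, 7 and 4 of 7 genes at the 5 times in turn, and their summed level was 22.5 to 53.5 CPM in the 8 mice at 0 h and 524 and 478 CPM in the control and LKO pools of 72 h. Neutrophil markers had 3 of 5 higher at 12 and 24 h, then 2, 1 and 0 at the later times. Of 5 cholangiocyte markers, *Sox9* was higher at 12, 24 and 48 h (3.57, 1.94 and 1.63), *Spp1* was higher and *Krt19* lower at 48 h, and *Epcam* lower at 72 h, and no lymphocyte marker of 4 was called. Proliferation genes had 2 of 5 lower at 12 h (*Top2a* and *Mki67*), 5 of 5 higher at 48 h and at 72 h (*Mki67* by 4.48 and 5.22), and *Top2a* higher at 96 h (1.59). The part of a changed cell mixture in the changes of the 10 genes was not tested.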

How the data were processed

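Whole-liver RNA was sequenced in 24 libraries. Per the study's methods, the authors trimmed reads with Trimmomatic and aligned them to mm10 with STAR, which counted reads per gene, and the annotation version is not given in the sources used here. The deposited values are raw read counts per gene, of which the column that disregards strand was used. The 4 entries that name no gene held 18.7% to 39.9% of the reads of a library and were left out. No 2 libraries held identical counts. Groups follow the labels.

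Counts were tested with edgeR 4.0.16 (R 4.3.3, TMM, filterByExpr, quasi-likelihood test, Benjamini-Hochberg adjustment over all genes tested), and all 10 genes passed the filter in each comparison. At 0 h each cohort was fitted alone, and over time genotype and time were additive terms in the LKO cohort. DESeq2 1.42.0, other scalings, filters and fits, and leaving out libraries were alternatives. The edgeR tests were tried on simulated counts, with the same spread for all genes and changes put only into genes with higher counts. That trial does not cover genes with few reads, such as *Sp5* and *Wnt9b*. Intervals of pool ratios are 95% exact binomial intervals and cover counting error only. The members and the gene lists were chosen with earlier results of these data known. By rule, all 10 members were named, up to 5 called genes per list and comparison by size of change, and up to 3 nearest profiles per member.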

Additional observations from a re-analysis of the deposited data

Results flagged for a closer look

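The fourth control mouse of the LKO cohort at 0 h stood apart from its group for a pair of genes. It had 1.81 CPM of *Sp5*, where the other 3 control mice had 0.41 to 0.64 CPM, and 16 CPM of *Tbx3*, where they had 9.7 to 10.7 CPM. Its gap to the nearest mouse was 0.836 and 0.838 of the group's range, above Dixon's 95% critical value for 4 samples. Of 20 groups tested, chance alone flags about 1 in 20.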

How the results depend on the processing

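The number of the 10 genes called stayed at 0 under all alternatives for LKO and HKO mice at 0 h, for their difference, for LKO against control pools, for the shift and for 96 h. The counts over time moved. At 12 h 5 genes were called, 3 with no filter beyond 1 count, 2 in control and 3 in LKO libraries alone, and 2 to 4 when 1 library was left out. At 24 h 4 were called, 0 in control and 2 in LKO libraries alone, and 0 to 5 with 1 library left out (0 without the LKO pool). At 48 h 4 were called, 0 in LKO libraries alone, and 0 to 4 with 1 library left out (0 without the control pool). At 72 h 1 was called, 2 in control and 0 in LKO libraries alone, and 0 to 2 with 1 library left out (0 without the control and 2 without the LKO pool). *Axin2* at 12 h reversed to -0.21 in control libraries alone and to -0.053 without the LKO pool, and lay between -0.053 and 1.82 with 1 library left out. The causes were not tested. Leaving out pools, leaving out control mice from the levels per kb and comparing single pools without TMM factors were chosen after seeing the data. Of 238 values of called genes under the alternatives, 180 kept their call, 56 lost it and 2 reversed. Of 1307 values of genes not called, 8 became called and 106 took another sign without a call. With a prior count of 0.5, 9 of 150 log2 changes moved by 1 SD or more.

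Replicate numbers did not pair the mice at 0 h (same-number correlations -0.379 to 0.222), and with the replicate block 0 of the 10 genes were called in either cohort, while the count over all genes was 264 against 119 in HKO mice and 0 in LKO mice. Over all genes, counts ranged over the alternatives from 0 to 3 for LKO at 0 h, 31 to 324 for HKO (119), 0 to 19 for their difference, 0 to 595 for the pools (70), 0 to 169 for the shift (21), 1414 to 4816 at 12 h (4299), 1062 to 3964 at 24 h (3549), 280 to 2697 at 48 h (2274), 375 to 2535 at 72 h (2327) and 7 to 338 at 96 h (64). Scaling by library size alone gave 76 higher and 58 lower genes in HKO mice against 52 and 67, 32 and 13 in the pools against 31 and 39, 2509 and 1116 at 24 h against 1928 and 1621, 2201 and 496 at 48 h against 1370 and 904, and 1738 and 415 at 72 h against 1527 and 800. It moved the median of all genes by 0.14 at 24 h and 0.20 at 48 h (log2). With 3 counts at 0.141 to 0.26 CPM, the low reads of *Sp5* and *Wnt9b* limit what their pools can show. The same holds for *Lgr5* at 12, 24 and 48 h, with 3, 11 and 7 reads in the control pools and 12, 5 and 20 in the LKO pools.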
